A study of Mus musculus with 18 samples.

Results

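The genotype effect on the monosome-to-total ratio was measured in 12 of the 18 mRNA-seq libraries of the series, the monosome and the total RNA libraries, with 3 per group. For each gene the difference between monosome and total RNA was taken on the log2 scale in libraries labelled as Mkrn2 knockout (KO), and the same difference in wild type (WT) libraries was subtracted from it. All 12 libraries came from mouse bone-marrow-derived macrophages, grown from thigh bone marrow with 20 ng/ml of macrophage colony-stimulating factor for 6 days and then exposed to lipopolysaccharide (LPS) at 100 ng/ml for 8 h. Both genotypes received LPS, so the comparison holds no untreated cells. The labels do not describe the knockout allele and do not state whether replicates were separate cultures or animals. The p-values therefore measure the spread between these libraries, which may be technical.

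Ribosome-bound mRNA separates on a sucrose gradient by the number of ribosomes it carries. A monosome is an mRNA on 1 ribosome, and a polysome carries several. Short coding sequences and poorly initiated mRNAs are found more in monosomes, whereas long and well translated mRNAs are found more in polysomes. Mkrn2 encodes an RNA-binding E3 ubiquitin ligase of the makorin family. The monosome-to-total ratio of a gene is its scaled level in monosome RNA over its scaled level in total RNA. Levels are counts scaled to a common library size with TMM factors. These factors were 0.605 to 0.664 in monosome and 1.25 to 1.27 in total RNA libraries. A ratio of 1 therefore does not mean equal shares of the sequenced RNA. The ratio rises or falls with either level, and it does not give the amount of monosomes per cell.

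Total RNA libraries held 11402715 to 16711558 counts and monosome libraries 9190034 to 12606314. Of the monosome counts 15.2% to 18.5% belonged to Fth1, which encodes the heavy chain of ferritin, against 2.52% to 3.29% of the total RNA counts. Monosome replicates were further apart than total RNA replicates. Where a gene averaged 50 counts or more in a group, the 3 libraries could be compared: 3.7% (WT) and 3.84% (KO-labelled) spanned 3-fold or more in monosome RNA, against 1.39% and 1.32% in total RNA. Macrophage markers summed to 11300 to 15500 CPM (counts scaled to a common library size with TMM factors) over the 12 libraries. Markers of stromal cells summed to 291 to 378 CPM in WT and 398 to 483 in KO-labelled total RNA. In monosome RNA they summed to 359 to 430 and 446 to 475. The median difference of the stromal markers was 0.45 in total RNA and 0.50 in monosome RNA (log2), and that of their ratio was 0.10, with 6 of 9 tested markers positive and none called. Dendritic cell markers summed to 99.9 to 107 CPM in WT and 110 to 125 in KO-labelled total RNA, and to 105 to 114 and 135 to 140 in monosome RNA. Neutrophil markers were low and summed to 4.5 to 7.25 and 6.8 to 7.12 CPM in total RNA, and to 7.71 to 11.5 and 13.6 to 15.2 in monosome RNA. The stromal and dendritic cell sums were thus higher under the KO label without overlap in both RNA sources, and the neutrophil sum in monosome RNA. The sums of all other marker lists overlapped between the labels in both RNA sources, those of macrophages and osteoclasts included. Over the 12 libraries Itgax held 15588 counts of the dendritic cell markers, and the next, Ccr7, held 514. Of the neutrophil markers S100a8 held 925 counts, and the next, Camp, held 170. The dendritic cell sum and the neutrophil sum thus each came mainly from the top gene, and neither shows a shift of the whole marker set. The stromal sum was spread over several genes, among them Col1a2 (12958 counts), Dcn (12196), Fn1 (11598) and Sparc (10177). Of the 7 erythroid markers, 5 were at 0 in all 12 libraries. The part of other cell types in the results below was not tested, and fewer cells of a type cannot be told apart from less RNA per cell.

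Mkrn2 RNA (ENSMUSG00000000439, chromosome 6, 115601902 to 115622624) was present in all libraries labelled KO. Its counts were 959, 929 and 1069 in WT total RNA and 887, 1200 and 972 in KO-labelled total RNA. In monosome RNA they were 520, 692 and 637 in WT and 480, 576 and 531 in KO-labelled libraries. After scaling, total RNA levels overlapped between the labels (59.7 to 66.9 CPM and 53.7 to 60.6 CPM), and monosome levels did not (85.3 to 91.2 CPM and 63.4 to 75 CPM). The labels were thus not matched by a loss of Mkrn2 RNA, and directions below refer to the labels. The ratio of mean levels was 1.39 in WT and 1.21 in KO-labelled libraries, a log2 difference of -0.20 ± 0.12 (SE; adjusted p = 0.982). The paralog Mkrn1 had ratios of 1.96 and 2.13, with a difference of 0.12 ± 0.09 (adjusted p = 0.986). Neither makorin gene passed the threshold.

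Few genes changed their monosome-to-total ratio with the genotype label, and 6 of the 7 that did had a lower ratio under the KO label. By edgeR's quasi-likelihood test, 7 of 12782 genes passed an adjusted p of 0.05 (0.0548% of the genes tested), 1 higher (0.00782%) and 6 lower (0.0469%) in KO-labelled libraries. The glycolytic enzyme gene Hk1, the transcription regulator genes Phf3 and Trip4, the nuclear import receptor gene Kpna6 and the membrane protein gene Dgcr2 fell, and so did Aarsd1 as annotated. Rsu1, which encodes an adhesion adaptor, was the 1 gene that rose. Without scaling beyond library size the calls were 2 higher and 6 lower, and without WT monosome replicate 2 they were 9 higher and 8 lower. At an unadjusted p under 0.05 there were 675 genes, 5.28% of those tested, with 279 higher (2.18%) and 396 lower (3.1%). Over all tested genes the median difference was -0.02 on the log2 scale, the quartiles were -0.20 and 0.16, and 83.3% of genes lay within 0.5 of 0. The median SE of a difference was 0.25, and 0.17 among genes at or above the median level of 13.3 CPM. In simulated counts, changes were planted in KO-labelled monosome libraries, in genes averaging 50 counts or more over the 12 libraries. The test called 0.5% of the genes with a planted 1.5-fold difference, 57% with 2-fold and 90.5% with 4-fold. False calls numbered 0, 10 and 9 in these runs. The simulation gave each gene the same spread in all groups, whereas the real monosome replicates were further apart than total RNA replicates. The shares called may thus be too high for changes in monosome RNA. Small changes were thus mostly not detectable with these libraries, and genes with fewer counts were not tried.

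**Figure D1:**
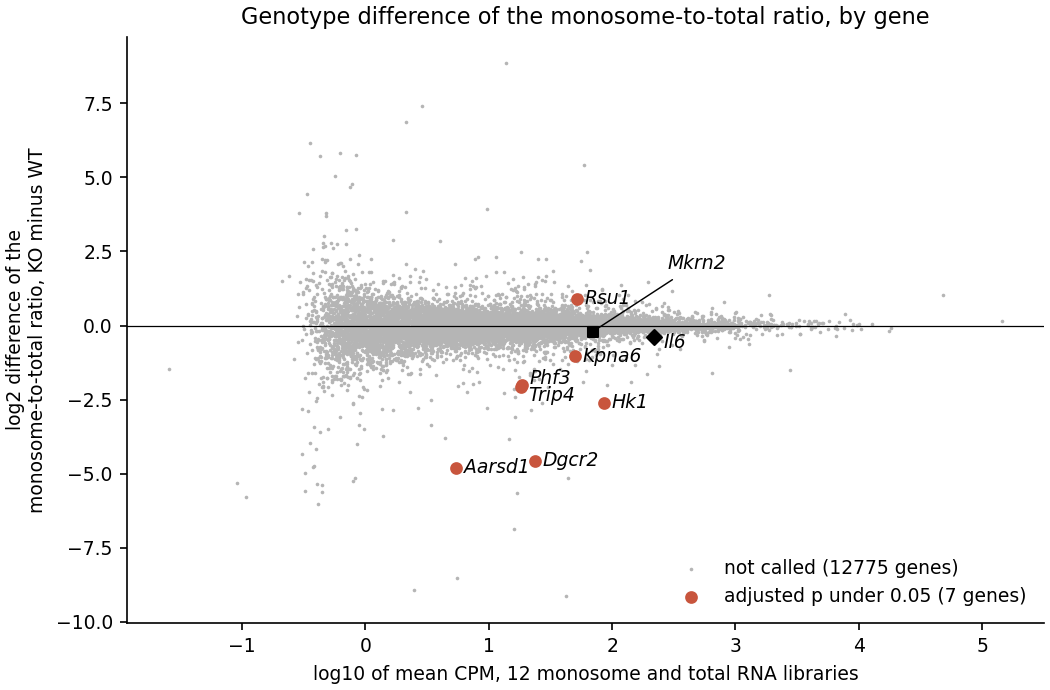
Difference of the log2 monosome-to-total ratio (KO-labelled minus WT, y axis) against the log10 of the mean CPM over the 12 libraries (x axis), 1 point per tested gene. The 7 called genes are red, and Il6 (diamond) and Mkrn2 (square) lie within the grey cloud of genes that were not called, which widens at low levels.

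Hk1 (ENSMUSG00000037012, chromosome 10, 62268855 to 62379908, minus strand) encodes hexokinase 1, which phosphorylates glucose in the first step of glycolysis. Its monosome counts were 512, 647 and 597 in WT and 97, 82 and 97 in KO-labelled libraries. Its total RNA counts were 1847, 2195 and 2113 in WT and 2042, 2302 and 1818 in KO-labelled libraries. All KO-labelled monosome libraries lay far below all WT monosome libraries, and the total RNA counts overlapped. Scaled total RNA levels were 129, 141 and 131 CPM in WT and 124, 109 and 113 with the KO label, slightly lower and without overlap. The scaled monosome level fell from 84.9 ± 0.758 CPM in WT (SD, n = 3) to 12 ± 1.14 CPM under the KO label. The ratio to total RNA was 0.635 in WT and 0.104 in KO-labelled libraries, a 6.12-fold lower ratio, with a log2 difference of -2.61 ± 0.11 (adjusted p = 1.02e-09, edgeR). Between the labels Hk1 differed by -2.82 in monosome RNA and by -0.21 in total RNA (log2), and the ratio difference is the first minus the second. In polysome RNA Hk1 differed by -0.25 on the log2 scale, at 109 and 91 CPM. An antisense gene inside the locus, Hk1os, had 11 to 15 counts in WT and 13 to 21 in KO-labelled monosome libraries, so the low Hk1 counts were not matched by counts of similar size at Hk1os. The list of glycolysis and pentose phosphate genes had 1 of 27 members called, which was Hk1, and its median difference was -0.03. Pgam1, the phosphoglycerate mutase, had 0.26 ± 0.09, and Taldo1, the transaldolase, had 0.23 ± 0.17, neither called.

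Phf3 (ENSMUSG00000048874, chromosome 1, 30802339 to 30873921, minus strand) encodes a protein that has a PHD finger and also binds RNA polymerase II. Phf3 had 129, 136 and 110 monosome counts in WT and 40, 36 and 29 in KO-labelled libraries. Total RNA held 344, 406 and 433 counts in WT and 394, 567 and 440 in KO-labelled libraries. The monosome groups did not overlap, and the total RNA groups did. The ratio was 0.712 in WT and 0.175 in KO-labelled libraries, a difference of -2.02 ± 0.19 (adjusted p = 5.47e-05). Polysome RNA of Phf3 stood at 19.7 ± 1.1 CPM and 21.2 ± 1.92 CPM, with overlapping libraries. Its coding sequence of 6075 bases was the longest among the called genes.

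Trip4 (ENSMUSG00000032386, chromosome 9, 65828930 to 65908794, minus strand) encodes a transcriptional coactivator that, in human cells, is also a subunit of a complex acting on collided ribosomes. In monosome RNA it had 164, 108 and 151 counts in WT and 39, 38 and 39 in KO-labelled libraries. In total RNA it had 369, 301 and 385 counts in WT and 350, 527 and 393 in KO-labelled libraries. The KO-labelled monosome libraries were close to each other and below all WT monosome libraries. The ratio was 0.91 in WT and 0.213 in KO-labelled libraries, a difference of -2.08 ± 0.26 (adjusted p = 0.00183). In polysome RNA Trip4 stood at 21.8 ± 1.64 CPM in WT and 21.1 ± 1.74 under the KO label, with overlap. An overlapping gene on the other strand, 2810417H13Rik, had 14 to 23 counts in WT and 18 to 36 in KO-labelled monosome libraries. Whether counting used the strand is not stated.

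The gene on the other side of the Trip4 start, Csnk1g1, showed the same direction. It encodes a casein kinase and runs from 65908924 to 66045015 on the plus strand of chromosome 9, and it was singled out after its values were seen. The monosome counts of Csnk1g1 were 30, 48 and 37 in WT and 7, 6 and 3 in KO-labelled libraries, with no overlap, and its total RNA counts were 242, 268 and 288 in WT and 268, 309 and 226 in KO-labelled libraries. Csnk1g1 was not called over all 18 libraries (-2.77 ± 0.98, adjusted p = 0.877), where its polysome counts spread from 129 to 263 in WT and from 16 to 207 in KO-labelled libraries. With only the 12 monosome and total RNA libraries it passed (adjusted p = 0.00109). The 129 bases between the 2 gene starts, chr9:65908795-65908923, are shown because they are the 5′ flank of both genes. They are given on the plus strand of GRCm38.p6, from RefSeq promoter windows, with the letters CGGAAG, the core of sites bound by factors of the ETS family, in capitals on either strand (as CGGAAG or CTTCCG).
Trip4-Csnk1g1 interval: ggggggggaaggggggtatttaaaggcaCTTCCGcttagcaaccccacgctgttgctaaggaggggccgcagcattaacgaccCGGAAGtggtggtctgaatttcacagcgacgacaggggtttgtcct
The interval was 58.1% G or C, with 7 CpG and 2 matches to these letters, 1 on each strand. Of 32817 RefSeq promoter windows of 300 bases, 16.9% held the letters on either strand and 4.07% held them at 2 or more places. The Trip4 window of that length held 3. A match is a description of the sequence, and in total RNA the scaled levels overlapped between the labels for Trip4 but not for Csnk1g1 (17.3 ± 0.505 CPM in WT and 15 ± 1.1 with the KO label).

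Kpna6 (ENSMUSG00000003731, chromosome 4, 129643980 to 129672767, minus strand) encodes an importin alpha, which carries cargo with a nuclear localisation signal into the nucleus. Monosome RNA held 226, 291 and 230 counts of Kpna6 in WT and 125, 111 and 171 in KO-labelled libraries. For total RNA the counts were 1053, 1159 and 1178 in WT and 1153, 1570 and 1254 in KO-labelled libraries. All KO-labelled monosome libraries were lower than all WT ones, by a smaller margin than for Hk1. Polysome levels of 55.5 ± 1.49 and 58.4 ± 4.6 CPM overlapped. The ratio fell from 0.49 to 0.238, a difference of -1.04 ± 0.16 (adjusted p = 0.0196). This call was lost in 7 settings, in 6 of which 1 library was left out (adjusted p up to 0.0875 over the 7).

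**Figure D2:**
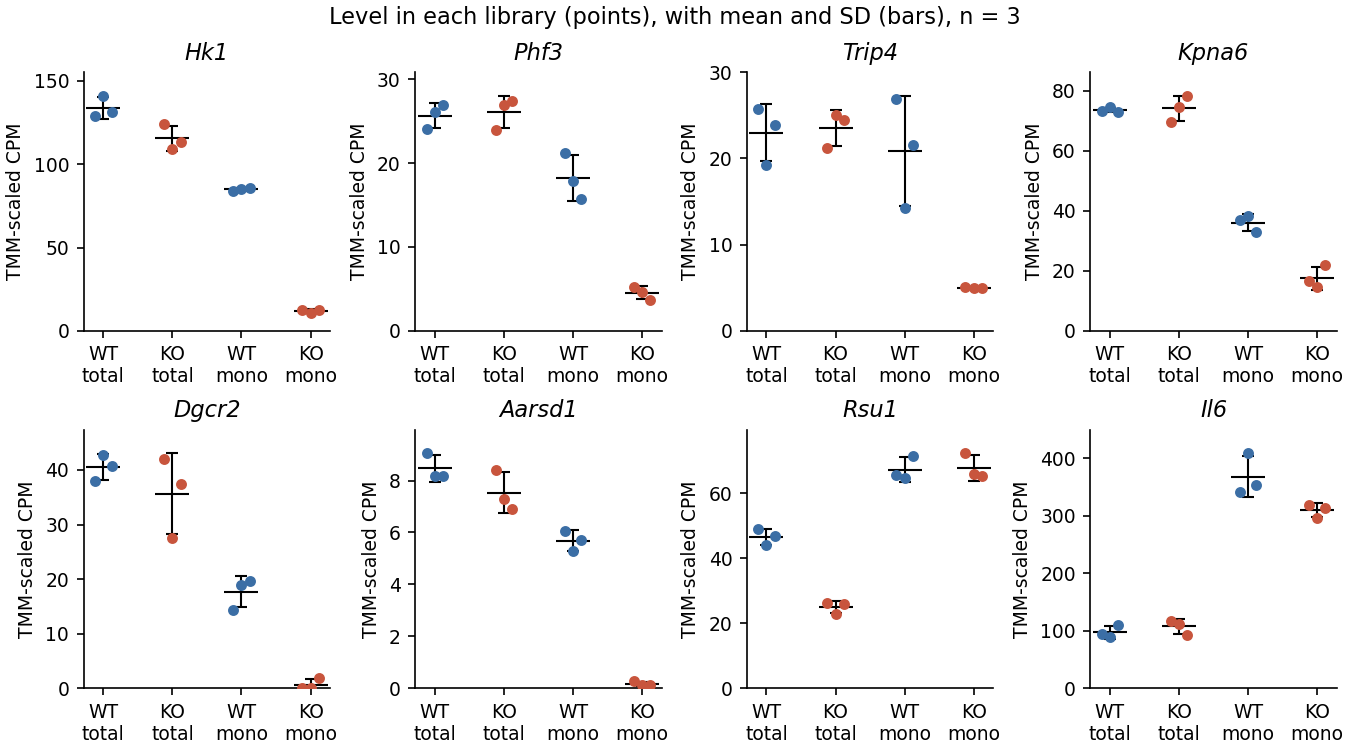
TMM-scaled CPM (y axes, from 0) of the 7 called genes and Il6 in each of the 12 libraries (points; blue WT, red KO-labelled), with mean and SD (bars, n = 3). Hk1, Phf3, Trip4, Kpna6, Dgcr2 and Aarsd1 are lowest in KO-labelled monosome RNA, and Rsu1 is lowest in KO-labelled total RNA.

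Dgcr2 and Aarsd1 had the largest differences among the called genes, and both share their locus with another annotated gene on the same strand. Dgcr2 (ENSMUSG00000003166, chromosome 16, 17839482 to 17894145, minus strand) encodes a transmembrane protein whose human counterpart lies in the DiGeorge critical region. The WT monosome libraries held 88, 144 and 138 counts of Dgcr2 and the KO-labelled ones 0, 0 and 15. In total RNA the counts were 544, 665 and 658 in WT and 694, 579 and 601 in KO-labelled libraries, with overlap. The difference was -4.57 ± 0.66 (adjusted p = 0.0115), a value that depends on how counts of 0 are fitted. It was -10.82 without KO monosome replicate 3, where both remaining KO-labelled monosome libraries are at 0 and the fitted value is no bound, and -4.0 and -3.99 without replicates 1 and 2 of that group. The overlapping gene Gm20518 had the opposite pattern, with 0, 2 and 0 monosome counts in WT and 22, 26 and 3 in KO-labelled libraries. Summed, the pair had 88, 146 and 138 counts in WT and 22, 26 and 18 in KO-labelled monosome libraries. The sum still did not overlap between the labels, and the summed locus, with Car15, fell by 2.48 ± 0.27 on the log2 scale (adjusted p = 0.000543).

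Aarsd1 (ENSMUSG00000075528, chromosome 11, 101406839 to 101417615, minus strand) encodes an enzyme that removes wrongly attached amino acids from alanine tRNA. It lay below the median level and so outside the rule for naming genes, and is named because it is 1 of the 7 calls. Aarsd1 had monosome counts of 37, 40 and 40 in WT and 2, 1 and 1 in KO-labelled libraries, and total RNA counts of 130, 127 and 132 in WT and 139, 153 and 111 in KO-labelled libraries. The difference was -4.79 ± 0.29 (adjusted p = 1.69e-07). Gm27029, which spans Aarsd1 on the same strand (101406664 to 101424796), had 8, 3 and 2 monosome counts in WT and 38, 51 and 53 in KO-labelled libraries. The sums of the pair were 45, 43 and 42 in WT and 40, 52 and 54 in KO-labelled monosome libraries, and they overlapped. For the summed locus, with Ptges3l, the difference was 0.01 ± 0.17 (adjusted p = 0.999). The Aarsd1 call thus did not hold for the locus as a whole.

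**Figure D3:**
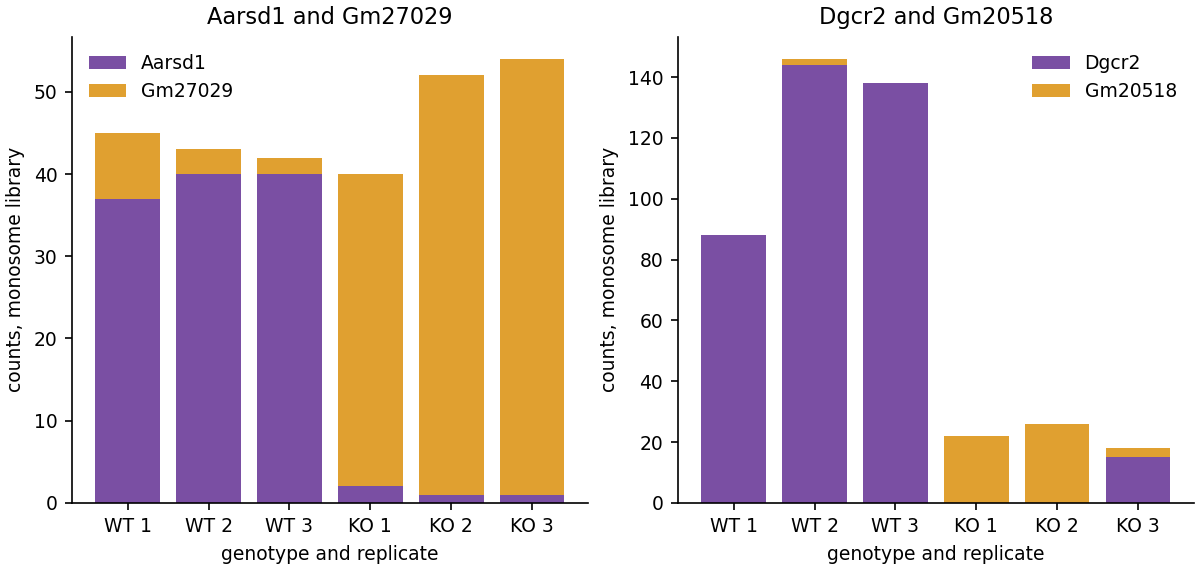
Monosome counts (y axes, from 0) in the 3 WT and 3 KO-labelled libraries of Aarsd1 with Gm27029 and of Dgcr2 with Gm20518, stacked. The Aarsd1 pair reaches 42 to 45 counts in WT and 40 to 54 in KO-labelled libraries, whereas the Dgcr2 pair reaches 88 to 146 and 18 to 26.

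After counts of same-strand genes with overlapping loci were summed, 6 of 12388 loci passed (0.0484%), 1 higher and 5 lower. These were the loci of Hk1, Phf3, Trip4, Kpna6, Dgcr2 and Rsu1. This setting was chosen after the data were seen.

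Rsu1 (ENSMUSG00000026727, chromosome 2, 13076821 to 13271415, minus strand) encodes a leucine-rich repeat protein of integrin adhesions that suppresses Ras signalling. In total RNA Rsu1 had 700, 684 and 753 counts in WT and 433, 479 and 417 in KO-labelled libraries. Its monosome counts were 400, 490 and 500 in WT and 547, 505 and 509 in KO-labelled libraries. In total RNA the groups did not overlap, with 46.5 ± 2.43 CPM in WT and 25 ± 1.95 with the KO label. In monosome RNA they did overlap after scaling, with 67.2 ± 3.73 and 67.8 ± 3.93 CPM. The ratio rose from 1.45 to 2.71, a difference of 0.91 ± 0.14 (adjusted p = 0.0196). It is the monosome difference of 0.01 minus the total RNA difference of -0.90. Polysome RNA of Rsu1 differed by -0.20 on the log2 scale, so the drop in total RNA was not seen at that size in either ribosomal fraction. Without WT total replicate 1, WT total replicate 3 or KO total replicate 2 the call was lost (adjusted p = 0.0845, 0.0739 and 0.0904).

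Of the 7 called genes, 6 thus differed more in monosome than in total RNA, Aarsd1 among them only as annotated. The share of all tested genes that did so was not counted. Since monosome replicates were further apart, the count is a description of these genes only. All 7 kept their sign when any 1 of the 12 libraries was left out. A kept sign was part of the rule by which all of them but Aarsd1 were named, so it is no separate support for the calls.

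**Figure D4:**
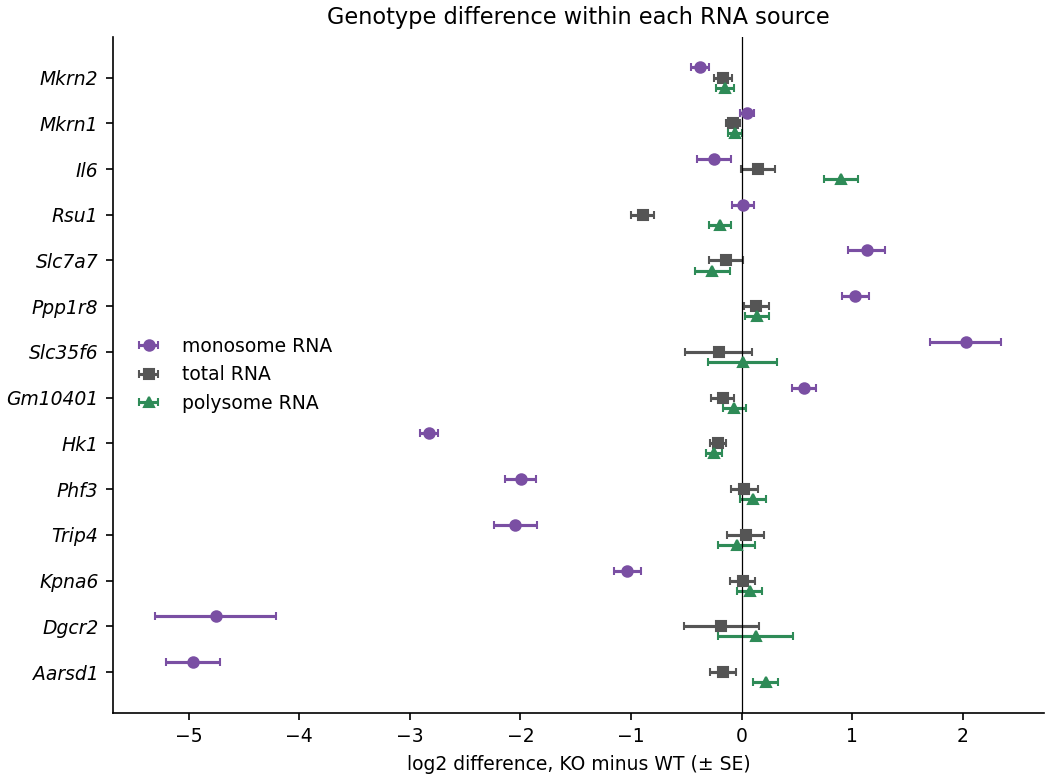
Difference between KO-labelled and WT libraries (log2, x axis, ± SE) within monosome (circles), total (squares) and polysome RNA (triangles) for 14 genes (y axis). The monosome value stands away from the other values for the 6 genes that fell, the total RNA value does so for Rsu1, and the polysome value does so for Il6.

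The next genes in the higher direction did not pass. Slc7a7 encodes the light chain of a transporter of cationic amino acids. The gene had monosome counts of 48, 99 and 63 in WT and 179, 155 and 172 in KO-labelled libraries, with no overlap, and total RNA counts of 272, 267 and 252 in WT and 294, 281 and 252 in KO-labelled libraries. Its difference was 1.27 ± 0.23 (adjusted p = 0.0776), and over the settings tried it passed in 6. Ppp1r8 encodes a nuclear inhibitor of protein phosphatase 1. Ppp1r8 had monosome counts of 51, 69 and 83 in WT and 140, 149 and 172 in KO-labelled libraries, and its difference was 0.90 ± 0.17 (adjusted p = 0.124). It passed in 3 settings, among them DESeq2 (0.00214) and the fit without WT monosome replicate 3 (0.0123). Slc35f6, which encodes a solute carrier, had monosome counts of 181, 80 and 52 in WT and 543, 481 and 451 in KO-labelled libraries, with a difference of 2.23 ± 0.44 (adjusted p = 0.171). WT monosome replicate 1 was the high one of its group, and without it the difference was 3.04 (adjusted p = 9.19e-07). Slc35f6 also passed with DESeq2 and with voom (adjusted p = 0.000729 and 0.00142). Gm10401, a predicted gene on the strand opposite to Sppl3, had a difference of 0.74 ± 0.15 (adjusted p = 0.18, and 0.0327 with DESeq2). Their ratios were 0.578 and 1.41 for Slc7a7, 0.492 and 0.917 for Ppp1r8, 0.834 and 3.88 for Slc35f6 and 1.49 and 2.48 for Gm10401, in WT and KO-labelled libraries.

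Il6 (ENSMUSG00000025746, chromosome 5, 30013114 to 30019981), which encodes the inflammatory cytokine IL-6, did not pass. Monosome counts of Il6 were 2084, 3101 and 2475 in WT and 2415, 2270 and 2455 in KO-labelled libraries. Its total RNA counts were 1342, 1375 and 1756 in WT and 1936, 2366 and 1481 in KO-labelled libraries. In scaled levels the monosome groups did not overlap, at 342, 409 and 354 CPM in WT and 319, 296 and 314 with the KO label, whereas the total RNA groups did. The ratio was 3.8 in WT and 2.89 in KO-labelled libraries, a difference of -0.40 ± 0.21 with a 95% interval of -0.85 to 0.06 (adjusted p = 0.974). Il6 had the smallest p among the 23 tested LPS-induced cytokines. Of these, 11 were positive and 12 negative, with a median of -0.06 and none called. Tnf, the gene of tumour necrosis factor, had 0.19 ± 0.13, and Ifnb1, the gene of interferon beta, 0.49 ± 0.29.

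Chemokines, which attract leukocytes, had a median of 0.16, and 16 of 19 were positive. Among all genes tested 47.3% were positive, and 57% among those with coding sequences in the shortest quartile. Between the labels the chemokine median was -0.01 in monosome and -0.05 in total RNA (log2). The list median in monosome RNA was thus not higher under the KO label, while single members went either way. In monosome RNA alone Ccl6 differed by 0.53 ± 0.09, Ccl4 by 0.17 ± 0.12 and Ccl9 by -0.21 ± 0.08. For the ratio no chemokine was called or had an unadjusted p under 0.05. The ratio difference was 0.22 ± 0.13 for Ccl6, 0.16 ± 0.12 for Ccl9 and 0.22 ± 0.18 for Ccl4. Among interferon-stimulated genes 25 of 41 were negative (median -0.04), and among genes of the NF-kB pathway and its feedback 20 of 34 were (median -0.02), with no calls. Both are near the values of all genes tested, of which 52.7% were negative with a median of -0.02. Isg20, an exonuclease induced by interferon, had -0.64 ± 0.30, and the signalling ligase gene Traf6 had -0.29 ± 0.18. Genes of antigen presentation had a median of -0.04, with 15 of 21 negative. Among them H2-K1, a class I heavy chain, had -0.30 ± 0.12, and its light chain B2m had 0.39 ± 0.17. No list other than glycolysis held a called gene.

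Among the genes of the translation machinery, mRNAs of cytosolic ribosomal proteins were the most monosome-rich list, with a median log2 difference of 2.24 between monosome and total RNA in WT. Their ratio differed little between the labels, with a median of 0.00 and 43 of 78 positive. Without scaling beyond library size the median of all genes was -0.04, so a list median this small may take either sign. Rps2 had -0.45 ± 0.14 and Rpl39 0.63 ± 0.27, neither called. Translation factors had a median of -0.01 (20 of 45 positive). Hbs1l, a ribosome rescue factor, had -0.39 ± 0.11, and Eif2s1, the alpha subunit of eIF2, had 0.36 ± 0.13. Stress-response mRNAs had a median of 0.00 (13 of 28 positive), with the glycyl-tRNA synthetase Gars at -0.27 ± 0.12. Snhg8 and Snhg5, 2 snoRNA host genes, had 0.49 ± 0.29 and 0.58 ± 0.36 in a list of noncoding RNAs with a median of 0.02 (10 of 19 positive).

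Genes that bind or process mRNA were split. Splicing and nonsense-mediated decay genes had a median of -0.02 (17 of 38 positive), and 4 of 38 had an unadjusted p under 0.05, beside 5.28% of all genes tested. Srrm1, a splicing coactivator, had monosome counts of 83, 105 and 81 in WT and 635, 671 and 155 in KO-labelled libraries. Replicate 3 of the KO-labelled group lay well below the other two but above the WT libraries. The difference of Srrm1 was 2.18 ± 0.48 (adjusted p = 0.271), and 2.61 without KO monosome replicate 3 (adjusted p = 4.98e-09), and it passed with DESeq2 (0.00355). Srrm2 had -0.43 ± 0.14, and Smg6, an endonuclease of nonsense-mediated decay, -1.07 ± 0.45. Genes of mRNA decay and binding of AU-rich elements had a median of 0.02 (17 of 30 positive), with the deadenylase subunit Cnot2 at 0.38 ± 0.17 and Hnrnpd, also called AUF1, at 0.57 ± 0.26.

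Nuclear-encoded subunits of the respiratory chain had a median of 0.08 with 53 of 75 positive, and mRNAs encoded in mitochondrial DNA had 0.10 with 9 of 13 positive. Between the labels the nuclear-encoded list had medians of 0.04 in monosome and -0.06 in total RNA (log2). The list from mitochondrial DNA had -0.06 and -0.18, lower under the KO label in both. Of all genes tested 47.3% were positive, and 57% of those in the shortest quartile of coding length. None of either list was called. The complex I subunit genes Ndufv2 and mt-Nd3 had 0.59 ± 0.20 and 0.59 ± 0.25. Mitochondrial mRNAs are translated inside the organelle. All genes with the symbol prefix mt-, mRNAs or not, together took 3.39% to 4.91% of monosome counts and 1.6% to 2.19% of total RNA counts.

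In the remaining lists 0 genes were called. Medians ranged from -0.18 for cell cycle genes (18 of 28 negative) to 0.09 for ferritin and iron handling (12 of 16 positive). Top2a, a topoisomerase of dividing cells, had -0.74 ± 0.24, and the iron regulator Hfe had -0.64 ± 0.21. Ftl1, the ferritin light chain, had 1.04 ± 0.54, with KO-labelled monosome levels of 119000, 133000 and 56900 CPM. Lysosomal genes had a median of 0.04 (22 of 36 positive), and in Atp6ap1, a subunit of the proton pump, the value of 1.46 ± 0.64 came with monosome counts of 741, 853 and 4517 in KO-labelled libraries. NRF2 antioxidant genes (14 of 23 positive) and chaperones of the endoplasmic reticulum (23 of 41 positive) had a median of 0.03 each. Proteasome subunits had -0.01 (14 of 36 positive), selenoproteins -0.04 (3 of 7 positive, 7 of 17 list symbols being in the table) and replicative histones 0.01 (4 of 7 positive).

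**Figure D5:**
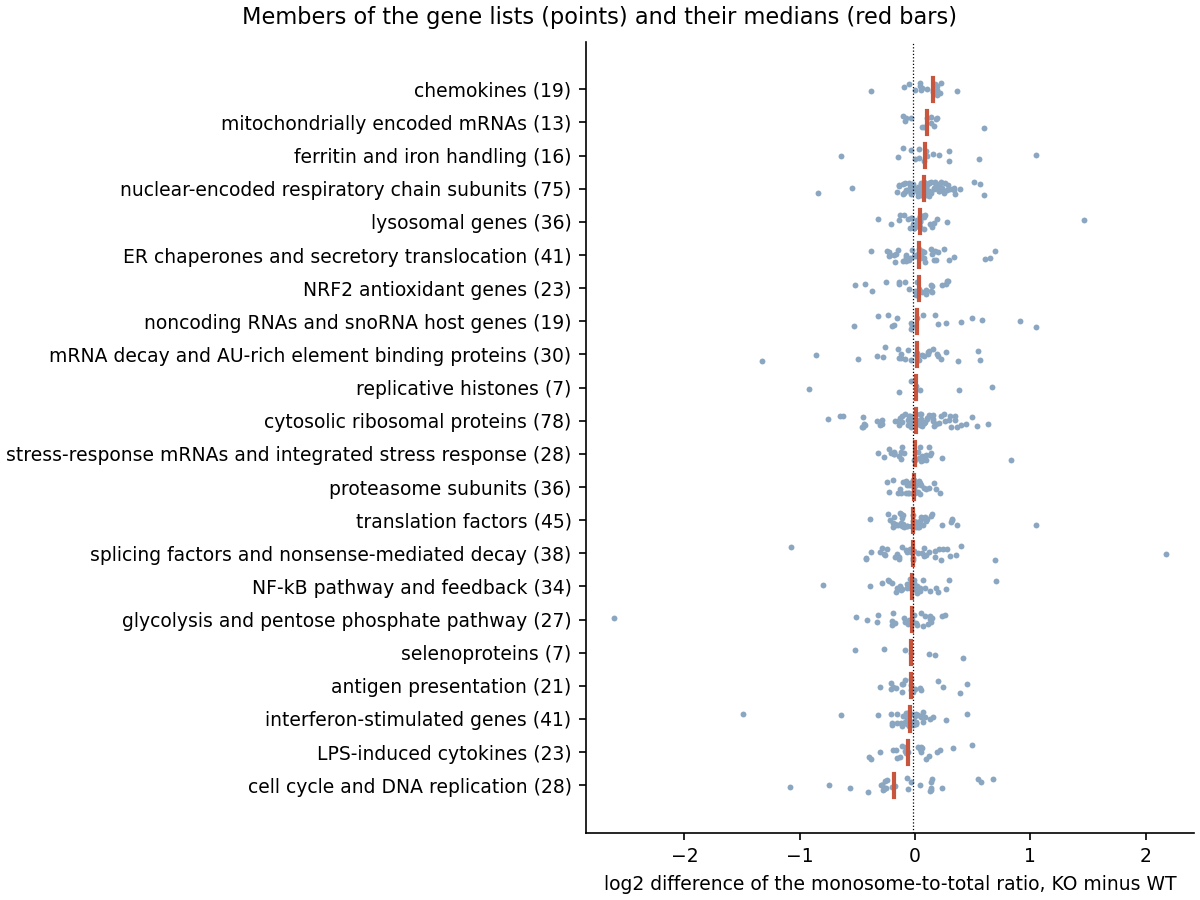
Difference of the log2 monosome-to-total ratio (x axis) for the tested members of 22 gene lists (points; number of members in parentheses), with the median of each list (red bars) and of all tested genes (dotted line, -0.02). List medians run from -0.18 to 0.16, and Hk1 is the point near -2.61 in the glycolysis list.

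A weak gradient with coding length was present. Coding length was known for 11680 tested genes (91.4%), from the GENCODE M21 annotation. In WT the log2 difference between monosome and total RNA fell with coding length, from a median of 0.76 in the shortest quartile (111 to 843 bases) to -0.75 in the longest (2190 to 26397 bases). The genotype difference of the ratio had medians of 0.03, -0.01, -0.04 and -0.06 from the shortest to the longest quartile. From the shortest to the longest, the median between the labels went from 0.003 to -0.025 in monosome RNA. In total RNA it went further, from -0.038 to 0.042. Spearman's rho across genes was -0.14, a description only, since genes are not independent replicates. In monosome RNA the gap between the shortest and the longest quartile was 1.43, 1.55 and 1.55 log2 CPM in the WT libraries and 1.48, 1.63 and 1.5 in the KO-labelled ones. In total RNA it was 0.12, -0.05 and 0.02 in WT and 0.07, -0.03 and -0.18 in KO-labelled libraries. Both sets of libraries overlapped between the labels, so the gradient does not exceed the spread between libraries.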

How the data were processed

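The authors deposited 1 table of raw counts per gene for each library, with FPKM beside them. Per the submitters' processing notes, fastp 0.23.2, HISAT2 2.0.4 and StringTie 1.3.0 were used; their roles, the genome build, strand use in counting and the counting program are not given in the sources used here. FPKM entered no test. The table holds 34745 genes. The edgeR package (version 4.0.16, R 4.3.3) was applied to the counts. Its filterByExpr left 12782 genes, which the model described by a mean for each of 6 groups in the 18 libraries, after TMM scaling. The ratio difference was an interaction contrast, tested two-sided by the quasi-likelihood F test and adjusted by Benjamini-Hochberg over all tested genes. Errors of log2 values are SE of that fit. The members and lists were chosen with earlier results of these data known. Named were Mkrn2, Mkrn1 and Il6; up to 10 called genes each way of largest difference, not below the median level and with a sign kept without any 1 library; genes of smallest p to fill up to 5 each way; and up to 3 genes of smallest p per list. Alternatives were other scalings and filters, the 12 libraries alone, replicate blocks, a robust prior, DESeq2 1.42.0, voom in limma 3.58.1, leaving out each library, and summing overlapping genes. The test was tried on simulated counts with 200 planted changes per run, with 0 to 10 false calls. No molecular identifiers are named in the labels, so reads may not be independent molecules. Positions are those of the table: 27776 of 34344 matched genes (80.9%) have the same position in GENCODE M21, and Dgcr2 does not. Coding lengths came from that annotation.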

Additional observations from a re-analysis of the deposited data

Results flagged for a closer look

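The genotype difference in monosome RNA differed from that in total RNA, by the interaction test above, in 7 genes. The log2 difference between them was -2.61 for Hk1, -4.79 for Aarsd1, -2.02 for Phf3, -2.08 for Trip4, -4.57 for Dgcr2, -1.04 for Kpna6 and 0.91 for Rsu1. For Aarsd1 and Dgcr2 the counts of an overlapping gene moved the other way, and for Rsu1 the difference lay in total RNA.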

How the results depend on the processing

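The count of 7 genes was 6 to 10 under the settings other than those named next. It was 11 with only the 12 libraries (3 higher, 8 lower, 5 of them shared with the 7) and 18 with DESeq2 (8 higher, 10 lower, all 7 shared). Leaving out 1 library gave 4 to 22 genes, with 4 without WT total replicate 1, 11 without WT monosome replicate 1, 17 without WT monosome replicate 2 (9 higher, 8 lower), 12 without KO monosome replicate 1, 17 without KO monosome replicate 2 and 22 without KO monosome replicate 3. The replicate block gave 8 genes (with Ppp1r8, adjusted p = 0.0464), and 6 as a block within genotype. Replicate numbers were not treated as pairs, because no same-numbered libraries correlated at 0.1, the value set for this. Deviations of same-numbered monosome and total RNA libraries correlated at -0.07 to 0.05, and of other numbers at -0.09 to 0.08. For WT and KO-labelled libraries of a fraction these were 0.01 to 0.08 and -0.06 to 0.03. There 4 of 6 libraries matched best with their own number, against 1 of 6 between monosome and total RNA. A weak pairing between the labels is therefore possible. Of 1865 gene values under the alternatives, 1832 kept their direction and side of the threshold, 16 lost it, 15 gained it and 2 reversed. The reversals were Aarsd1 with overlapping genes summed (0.014) and Gpx3 without WT monosome replicate 2 (-0.052; 0.82 at most, without WT monosome replicate 1), and the cause of the second was not tested. Hk1 and Phf3 passed under all 24 alternatives. Trip4 was lost in 1 (voom with a weight per fraction, adjusted p = 0.0801) and Dgcr2 in 5, among them without WT total replicate 1 (0.0507) and with the 12 libraries (0.075). Kpna6 was lost without WT total replicate 1, 2 or 3, KO total replicate 2 or 3, or KO monosome replicate 1, and with the 12 libraries. Low monosome counts limit the genes under the median level.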

Other observations

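Several genes with wide counts in polysome RNA passed the test when only the 12 monosome and total RNA libraries were used, and not over all 18. They were chosen after their values were seen. Slc25a36, a mitochondrial carrier of pyrimidine nucleotides, had monosome counts of 3, 7 and 4 in WT and 80, 84 and 84 in KO-labelled libraries, with total RNA counts of 182, 209 and 225 and of 185, 314 and 243. Its ratio difference was 3.94 ± 1.0 (adjusted p = 0.523 over 18 libraries and 2.1e-05 over 12). Its polysome counts were 252, 311 and 17 in WT and 246, 218 and 355 in KO-labelled libraries.

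Gas2l3, which encodes a protein that links actin and microtubules, had monosome counts of 219, 135 and 173 in WT and 1, 3 and 3 in KO-labelled libraries. Its total RNA counts were 220, 253 and 237 in WT and 334, 446 and 378 in KO-labelled libraries. In polysome RNA 1 library of each label was low, with 14, 388 and 770 counts in WT and 784, 10 and 833 in KO-labelled libraries.

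Rnf13, a ubiquitin ligase gene of endosomes, differed in total RNA, with 1000, 1031 and 1054 counts in WT and 296, 436 and 329 in KO-labelled libraries. Its monosome counts were 581, 602 and 567 in WT and 769, 670 and 682 in KO-labelled libraries. Its polysome counts were 1105, 314 and 1118 in WT and 205, 1028 and 1198 in KO-labelled libraries, so that a level near that of the KO-labelled total RNA also appeared in 1 polysome library of each label. The transcription factor gene Tcf4 had monosome counts of 441, 625 and 666 in WT and 176, 179 and 235 in KO-labelled libraries, with a ratio difference of -1.90 ± 0.39 (adjusted p = 0.193 over 18 libraries and 0.00195 over 12).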
